A study of Canis lupus familiaris with 8 samples.

Results

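SAMHD1+ CD4 T cells from the blood of 4 healthy Beagles were picked out by virtual gating on raw counts of unique molecular identifiers (UMIs), each of which stands for 1 captured RNA molecule. A cell was a member with at least 1 UMI of CD4 and of SAMHD1 and with no UMI of CD8A, FOXP3 or KLRK1. The gate held 1970 of the 13247 CD4 single-positive (sp) cells, which have a CD4 UMI and no CD8A UMI, and of 31909 quality-filtered cells in all. TCRαβ+ T cells had been sorted from each dog, frozen and measured in 1 droplet-based 5' gene expression library and 1 receptor (V(D)J) library per dog, so the dog is the replicate and n = 4. The dogs were a 5-year-old female (dog 1), 7-year-old males (dogs 2 and 3) and a 9-year-old male (dog 4). None of them was treated, so that every comparison is between groups of cells within the same dogs, and age and sex cannot be told apart from the individual dog. The 4 libraries held 26904346, 35661623, 32637367 and 32773374 UMIs, and 7096, 8454, 8109 and 8250 cells passed the filter of 500 to 20000 UMIs and at most 10% mitochondrial UMIs. Pairs of libraries shared between 87 and 120 cell barcodes, of which at most 2 were members in both.

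SAMHD1 is a triphosphohydrolase that breaks down the deoxynucleotides needed for DNA synthesis. It is best known as a restriction factor that slows retroviral reverse transcription in resting T cells and myeloid cells. Central memory CD4 T cells are antigen-experienced cells that keep CCR7, a receptor for entry into lymph nodes, whereas effector memory and Th1 cells carry receptors for inflamed tissue and genes of cytokine release and killing.

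The gate drew on SAMHD1, CD4, CD8A, FOXP3 and KLRK1, so the values of these genes describe the choice and are no result. Dogs 1 to 4 gave 435, 689, 327 and 519 members. These were 11.9%, 19.0%, 12% and 16% of the CD4 sp cells, with exact (Clopper-Pearson) 95% intervals from 10.9% to 13.0%, 17.7% to 20.3%, 10.8% to 13.3% and 14.8% to 17.3%, which cover counting error only. Dogs 2 and 4 thus had larger shares than dogs 1 and 3, and their intervals lay above those of dogs 1 and 3. Of the members 1457 passed with a single SAMHD1 UMI, 1 molecule from exclusion, and 513 had at least 2. The summed SAMHD1 level was 268, 308, 299 and 316 CPM in the members, where CPM are UMIs of a gene per 1000000 UMIs of the group. A cell without a SAMHD1 UMI is not a cell without SAMHD1 RNA. In the same gate without the condition on SAMHD1, the share with a SAMHD1 UMI was 8.33% ± 2.64 (SD, n = 4) in cells of 500 to 2000 UMIs and 30.6% ± 2.61 in cells of 6000 to 20000 UMIs. The members were accordingly deeper, with a mean of the dogs' median UMIs of 4329 ± 73.6 (SD) against 3761 ± 128 in the cells of the same gate without a SAMHD1 UMI, so results are also given for cells of 3000 to 6000 UMIs in both groups.

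SAMHD1 RNA was detected more often in CD4 sp than in CD8A sp cells. A SAMHD1 UMI was found in 12.3%, 22.6%, 15.1% and 18.8% of the CD4 sp cells without FOXP3 and KLRK1 UMIs (dogs 1 to 4). Among FOXP3+ CD4 sp cells, where FOXP3 marks regulatory T cells, the share was 22.7%, 30.4%, 13.0% and 28.9%, higher than in the FOXP3-negative gate in dogs 1, 2 and 4 and lower in dog 3. It was 12%, 11%, 4.71% and 10.5% among KLRK1+ CD4 sp cells, KLRK1 being the activating receptor NKG2D. CD8A sp cells with GZMB, a granzyme of killer cells, had the lowest share, 2.53% ± 1.28 (SD) at a median depth of 3583 UMIs against 17.2% ± 4.46 at 3849 UMIs in the CD4 gate. Thinned to 2000 UMIs per cell, the means were 11.7% for FOXP3+ cells, 9.86% for the CD4 gate, 2.67% for KLRK1+ cells and 1.09% for CD8A sp cells with GZMB, and the CD4 gate lay above the CD8A sp cells with GZMB in each dog.

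**Figure D1:**
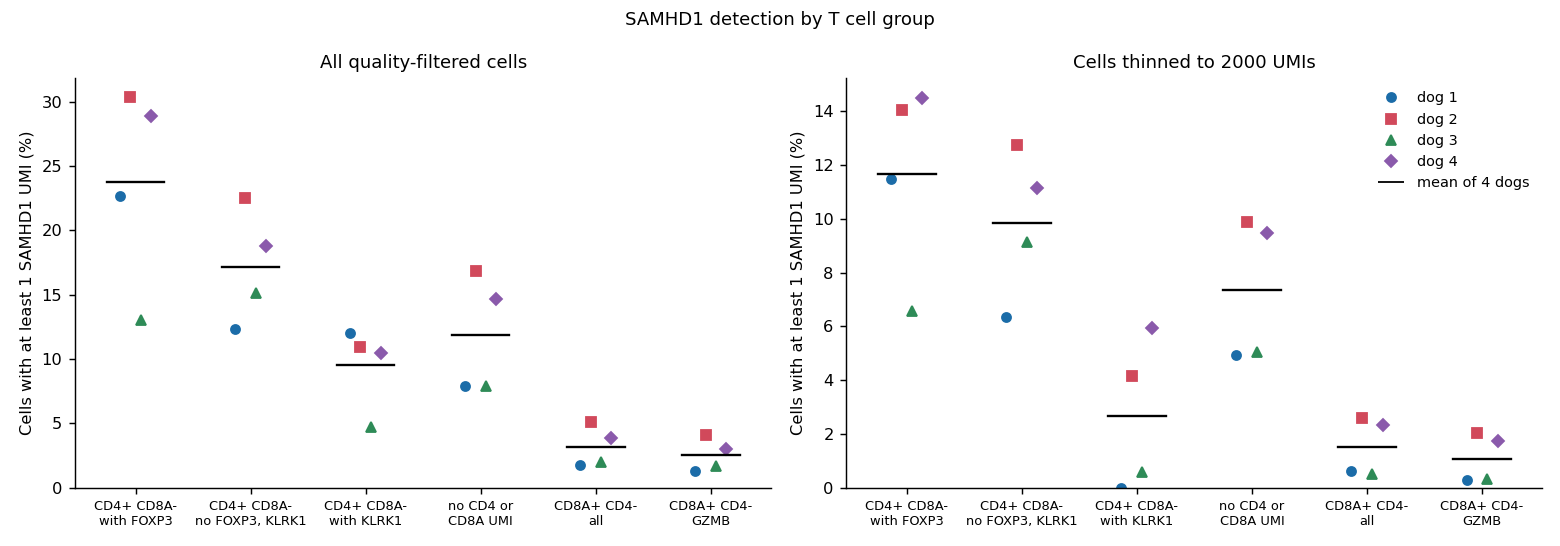
Share of cells with at least 1 SAMHD1 UMI (percent, y axis) in 6 T cell groups, in all quality-filtered cells on the left and after thinning each cell to 2000 UMIs on the right, with 1 point per dog and a bar at the mean of the 4 dogs. All CD8A sp cells and those with GZMB lie below the CD4 gate in every dog, and thinning lowers the CD4 gate from a mean of 17.2% to 9.86%.

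The name central memory was checked against CCR7, SELENOP, ID3 and TNFRSF4, the markers given with SAMHD1 for these cells. ID3 restrains E proteins and with them effector differentiation, SELENOP is a secreted selenoprotein and TNFRSF4 (OX40) is a costimulatory receptor of activated CD4 cells. Since they were chosen for going with SAMHD1, their levels are given here without a test, although list counts further below include CCR7 and TNFRSF4. ID3 was present at 182, 193, 167 and 141 CPM in the members and at 110, 111, 114 and 75.2 CPM in the cells without a SAMHD1 UMI. SELENOP was at 49.5, 32.7, 37.1 and 54.7 CPM against 16.9, 19.4, 24.9 and 30.2 CPM. TNFRSF4 was at 19.8, 22.3, 18.9 and 29.4 CPM against 10.4, 8.25, 13.4 and 13.2 CPM. For all 3 genes every dog's members lay above every dog's other cells. CCR7 was different. It was at 193, 219, 276 and 144 CPM in the members against 219, 212, 271 and 106 CPM, lower in dog 1 and higher in the other dogs.

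The mean levels also followed the number of SAMHD1 UMIs, except for CCR7, although depth rose with that number as well (mean of the median UMIs 3761, 4127 and 4982) and its part was not tested. Because the markers were chosen for going with SAMHD1, this rise describes the choice and is no result. From 0 to 1 to at least 2 SAMHD1 UMIs, mean ID3 went from 103 to 164 to 188 CPM, SELENOP from 22.9 to 41.3 to 47.5 CPM and TNFRSF4 from 11.3 to 19.4 to 29.4 CPM. CCR7 stayed at 202, 207 and 206 CPM. The last step did not hold in every dog. From 1 to at least 2 SAMHD1 UMIs, SELENOP went from 50.7 to 45.2 CPM in dog 1. ID3 in dog 2 (193 and 192 CPM) and TNFRSF4 in dog 4 (29.5 and 29.4 CPM) were about level. The single markers were sparse. At least 1 UMI of ID3, SELENOP, TNFRSF4 or CCR7 was seen in 71.3% ± 3.39 (SD) of the members and 56.7% ± 9.38 of the others, and at least 2 of the 4 genes in 28.6% ± 0.563 and 14.8% ± 2.84. A CCR7 UMI was seen in 47.9% ± 6.45 of the members against 41.2% ± 11.4, and in 30.1% against 29.5% after thinning to 2000 UMIs. ID3, SELENOP and TNFRSF4 cannot decide on the name central memory, since they were chosen for going with SAMHD1. CCR7 did not separate the members from the cells of the same gate without a SAMHD1 UMI, and they are called SAMHD1+ CD4 cells here. In the FOXP3+ and KLRK1+ CD4 sp cells, which the gate removes, mean CCR7 was 101 and 58.5 CPM against 208 CPM in the members. TNFRSF4 and ID3 were not particular to the members. Mean TNFRSF4 was 25.4 CPM in the FOXP3+ cells against 22.6 CPM in the members. Mean ID3 was 129 against 171 CPM, with dog 1 higher in the FOXP3+ cells (193 against 182 CPM), and mean SELENOP was 13.3 against 43.5 CPM. In the KLRK1+ cells mean TNFRSF4, ID3 and SELENOP were 5.14, 47.6 and 15.6 CPM.

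**Figure D2:**
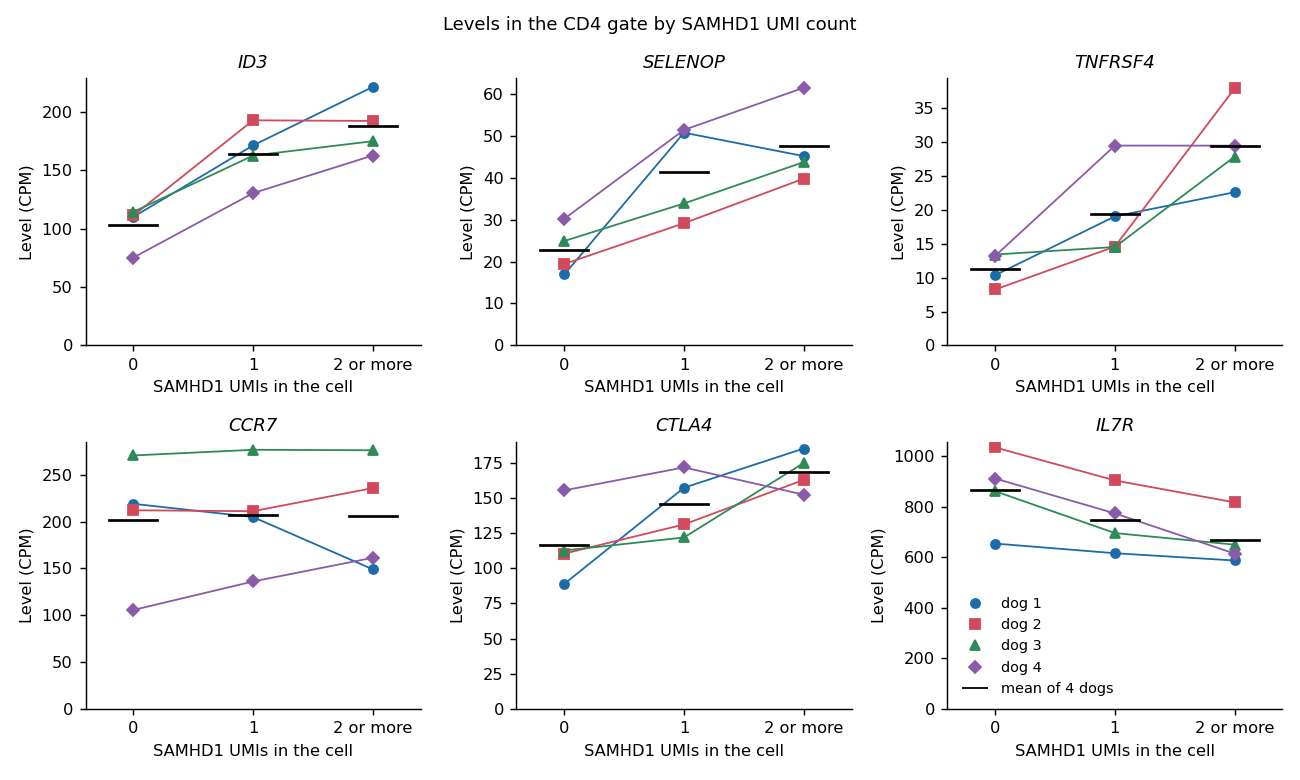
Level in CPM (y axis, starting at 0) of 6 genes in CD4 sp cells without FOXP3 and KLRK1 UMIs that had 0, 1 or at least 2 SAMHD1 UMIs, 1 line per dog and a bar at the mean of the 4 dogs. The means of ID3, SELENOP and TNFRSF4 climb with the SAMHD1 count, CCR7 shows no common direction and IL7R declines in each dog.

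Markers of other blood cells were close to 0 in the members, with the exception of CD79A. The 12 myeloid genes found in the files, a group that matters because myeloid cells carry SAMHD1, summed to 3 UMIs over all 1970 members. CSF1R, CD163, AIF1 and SPI1 were at 0, and the most abundant, LYZ, reached 0.157 CPM. NK cell markers summed to 4.83 ± 3.15 CPM (SD), mostly KLRD1 at 4.07 CPM, with NCR1 and KLRF1 at 0. Platelet and red cell markers came to 0.998 CPM, all of it ITGA2B. The B cell list summed to 9479 ± 251 CPM, but 9473 CPM of this was CD79A, which was at 9880 ± 646 CPM in the cells without a SAMHD1 UMI, while PAX5 and CD22 were at 0. Ribosomal protein genes took 23.7% ± 1.13 of the members' UMIs against 23.7% ± 1.91, and mitochondrial protein genes 2.06% ± 0.373 against 2.13% ± 0.405. Among cells with a TRB rearrangement, 7.4%, 6.43%, 4.06% and 3.25% of the members held 2 or more, which can mark 2 cells in 1 droplet, against 4.06%, 3.01%, 3.76% and 2.43% of the cells without a SAMHD1 UMI. This share was higher in the members in 4 of 4 dogs (exact sign-flip permutation test, two-sided, p = 0.13, the smallest p that 4 dogs allow).

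Against all other CD4 sp cells, 11277 in number, the members had less RNA of several killer cell genes. Of 9628 genes tested with edgeR on UMIs summed per dog, 221 (2.30%) were called at an adjusted p under 0.05, with 95 higher (0.987%) and 126 lower (1.31%). TCF7, a transcription factor that maintains naive and memory cells, was at 411, 424, 411 and 377 CPM in the members and 411, 340, 336 and 280 CPM in the others, about level in dog 1, and its call (0.26 ± 0.06, SE, log2) was lost without dogs 2, 3 or 4 (adjusted p from 0.149 to 0.227). Of the cytotoxic list, 7 of 12 genes tested fell, with CCL5 at 7.43, 15.4, 3.25 and 7.57 CPM in the members and 32.6, 61.9, 38.4 and 99.3 CPM in the others. GZMK, a granzyme of memory T cells, was at 7.92, 39.3, 47.5 and 45.0 CPM against 26.9, 105, 154 and 165 CPM. Neither gene had a dog in which the members were higher. The count of genes was 131, 82 and 54 without dogs 2, 3 and 4 in turn, and 0 without dog as a block, where 426 genes had an unadjusted p under 0.05. The others include the FOXP3+ and KLRK1+ cells that the gate removes, and part of these differences is therefore built into the gate.

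The closer comparison was with the 9542 cells that met every condition except SAMHD1. Here some early activation and costimulation genes were higher in the members, and CCR9 and some cytotoxic and cytokine receptor genes were lower. TNFRSF18 and CTLA4, the costimulation genes meant here, also belong to the regulatory T cell list. IKZF2 of that list was higher as well, with a call that was lost without dogs 2 or 3 (edgeR adjusted p = 0.076 and 0.321). Of 9340 genes tested, 240 (2.57%) were called, 135 higher (1.45%) and 105 lower (1.12%), and 227 of the 240 moved the same way in all 4 dogs. Differences were modest, with a median size of 0.42 on the log2 scale and 32 genes at 2-fold or more. In cells of 3000 to 6000 UMIs, 130 of 8869 genes (1.47%) were called, 103 of them among the 240, and without cells with more than 1 TRB 223 were called, 211 of them among the 240. Without dog 3 the count was 46 and without dog 2 it was 134. Without dog as a block it was 0, with 468 genes at an unadjusted p under 0.05.

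Among the genes that were higher, TRIB1, a pseudokinase that guides protein degradation, was at 27.7, 22.9, 31.9 and 24.8 CPM in the members and at 11.8, 9.98, 9.47 and 16.4 CPM in the cells without a SAMHD1 UMI. The members lay above the others in each dog and did not overlap them, with a log2 difference of 1.15 ± 0.15 (SE) and an adjusted p of 0.000374. TNFRSF18 (GITR), a costimulatory receptor of activated and regulatory T cells, was at 33.7, 25.4, 38.4 and 38.3 CPM against 14.5, 13.9, 18.6 and 20.7 CPM, a log2 difference of 1.0 ± 0.11. AP1S2, a subunit of a vesicle adaptor complex, rose by 0.94 ± 0.14, CCDC3 by 0.71 ± 0.09 and NR1D1, a nuclear receptor of the circadian clock, by 0.71 ± 0.10. DHX32, an RNA helicase, and TUBB6, a tubulin, rose by 0.74 ± 0.13 and 0.76 ± 0.13, but both calls were lost without dog 3 (adjusted p = 0.0592 and 0.0769), and TUBB6 was not called in cells of 3000 to 6000 UMIs (adjusted p = 0.115). H1-5 and TK1 belong to dividing cells. H1-5, a linker histone, had the highest log2 fold change of the genes named in this paragraph, 1.79 ± 0.34, from 22.8, 14.1, 143 and 5.89 CPM against 11, 9.77, 13.3 and 5.40 CPM. Only dog 3 was far above, and the change was -0.29 in cells of 3000 to 6000 UMIs and 0.68 without dog 3 (adjusted p = 0.219). TK1, thymidine kinase, rose by 0.77 ± 0.17, with 0.17 in the same depth range and 0.54 without dog 3 (adjusted p = 0.348).

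Of the genes that were lower, the chemokine CCL5 was at 7.43, 15.4, 3.25 and 7.57 CPM in the members and at 23.1, 29.1, 29.9 and 55.8 CPM in the cells without a SAMHD1 UMI, a log2 fold change of -1.87 ± 0.22 (adjusted p = 0.000107). GZMK was at 7.92, 39.3, 47.5 and 45.0 CPM against 25.9, 70.2, 94.4 and 128 CPM (-1.17 ± 0.11). CCR9, the receptor for homing to the small intestine, was at 6.93, 42.4, 18.9 and 51.7 CPM against 8.12, 94.6, 43.0 and 121 CPM (-1.14 ± 0.10). In all 3 genes every dog had the lower value in the members, and for CCL5 the groups did not overlap, whereas for GZMK and CCR9 the other cells of dog 1 were below the members of dogs 2, 3 and 4. IL12RB2, the inducible chain of the IL-12 receptor, fell by 1.14 ± 0.11, KLRG1, an inhibitory receptor of differentiated cells, by 0.98 ± 0.13 and ZNF683 (HOBIT), a factor of tissue-resident and killer cells, by 0.79 ± 0.11. SSBP2, a DNA-binding cofactor, fell by 0.95 ± 0.14 and ARHGAP5 by 0.75 ± 0.11. CCL4, RGS3, RBP4 and PTPN4 were also lower, but each call was lost without dog 3, with adjusted p = 0.249, 0.0758, 0.305 and 0.0827, and CCL4 and PTPN4 missed the threshold without dog 2 as well (both 0.104). CCL4 changed by -0.06 in cells of 3000 to 6000 UMIs.

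**Figure D3:**
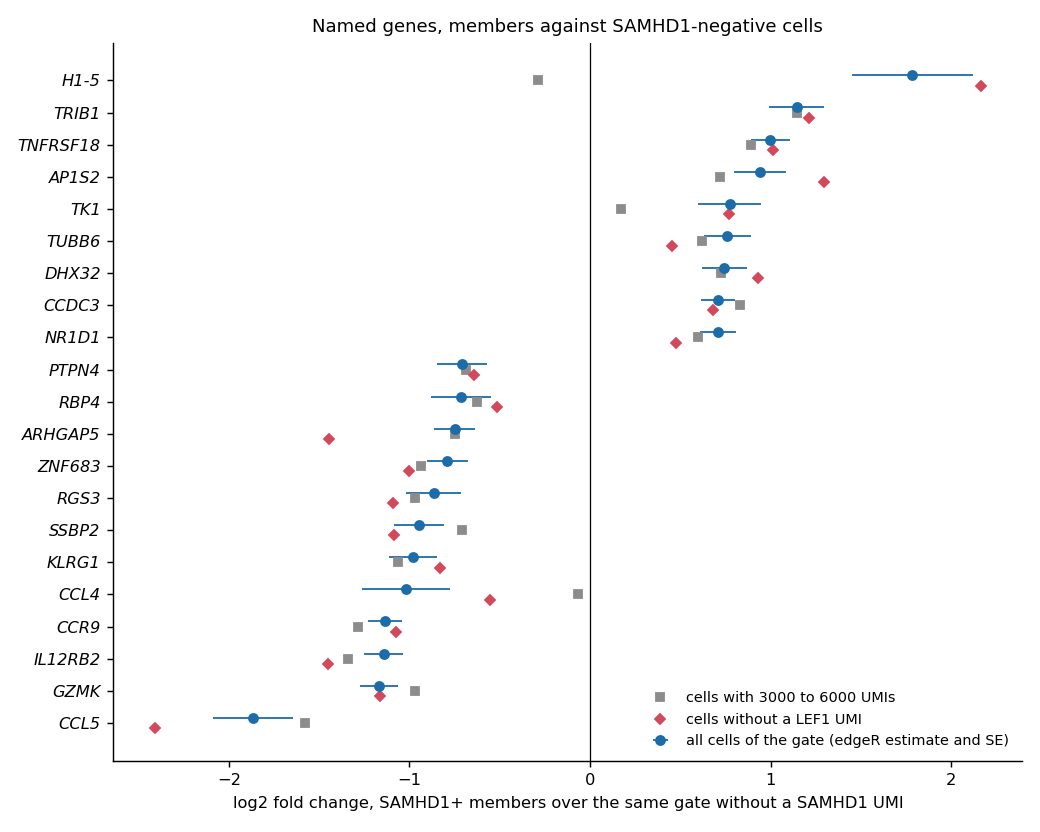
Log2 fold change (x axis) of the named genes in SAMHD1+ members over cells of the same gate without a SAMHD1 UMI, with circles and SE bars for all cells, squares for cells of 3000 to 6000 UMIs and diamonds for cells without a LEF1 UMI. H1-5, TK1 and CCL4 move to near 0 or beyond in the fixed depth range, and all diamonds lie on the same side of 0 as the circles.

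Genes were also counted by list in the same comparison, where 2.57% of all genes tested were called (1.47% in cells of 3000 to 6000 UMIs) and their median was 0.00 (log2). Of the cytotoxic genes, 6 of 12 fell (GZMK, ZNF683, KLRG1, CCL4, CCL5 and PRF1, the pore-forming perforin) and none rose, with a list median of -0.88. Of 14 costimulation genes tested, which include the marker TNFRSF4, TNFRSF18 and CTLA4 rose and CD2 fell beside that marker. The call of CD2 was lost without dogs 2, 3 or 4 (adjusted p from 0.134 to 0.219) and in cells of 3000 to 6000 UMIs (0.0984). CTLA4, the inhibitory receptor that activated T cells put on their surface, was at 163, 142, 139 and 165 CPM against 88.8, 110, 113 and 155 CPM, higher in every dog with a log2 fold change of 0.40 ± 0.08, and missed the threshold without dog 3 (adjusted p = 0.13). Of 18 early activation genes, IER2 (0.35 ± 0.05), JUNB (0.30 ± 0.05) and RGS1 (0.20 ± 0.05, higher in 3 of 4 dogs) rose, and in cells of 3000 to 6000 UMIs 6 of 18 did. JUNB missed the threshold without dog 3 (adjusted p = 0.0774), and RGS1 without dogs 1, 2 or 4 (adjusted p from 0.068 to 0.329).

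Among 22 chemokine receptors and homing genes, GPR25, CCR6 and CXCR5 rose and CCR9 and ITGB7, a chain of the gut-homing integrin, fell. CCR6, which guides Th17 and memory cells to epithelia, was at 27.7, 38.0, 26.0 and 29.0 CPM against 16.1, 25.2, 15.0 and 20.6 CPM, and GPR25 at 61.9, 111, 116 and 173 CPM against 54.7, 75.9, 83.7 and 120 CPM, each higher in every dog. CXCR5, the receptor for B cell follicles, was low, at 8.91, 2.51, 5.85 and 12.6 CPM against 2.68, 1.09, 2.18 and 3.45 CPM (1.65 ± 0.26). It was below the expression filter in the cells of 3000 to 6000 UMIs. With MAF (0.62 ± 0.16, adjusted p = 0.305 without dog 3, 0.134 without dog 1 and 0.226 in cells of 3000 to 6000 UMIs) it made up the 2 genes called of 12 follicular helper genes. ITGB7 (-0.30 ± 0.06) missed the threshold without dogs 2, 3 or 4. Of 11 Th1 genes, IL12RB2 and IL18R1 fell, the latter by 0.34 ± 0.08 and with a call that was lost without dogs 2, 3 or 4 (adjusted p from 0.177 to 0.26). In cells of 3000 to 6000 UMIs 4 of the 11 Th1 genes were called lower.

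Of 15 cytokine receptor and signalling genes, 3 fell and none rose. IL7R, the survival receptor of resting T cells, was at 609, 875, 680 and 721 CPM in the members against 654, 1034, 861 and 911 CPM (-0.25 ± 0.04, adjusted p = 0.105 without dog 3), IL4R changed by -0.59 ± 0.09 and CISH, a feedback inhibitor of cytokine signalling, by -0.51 ± 0.06. All 3 had lower values in the members in every dog. TXNIP, a gene of quiescent cells, fell by 0.47 ± 0.08 (adjusted p = 0.0896 without dog 3). TXNIP and IL7R were the 2 genes called of 14 naive and central memory genes, with a list median of 0.01. In the cell cycle list CCND2 fell by 0.61 ± 0.06 and CCND3 by 0.43 ± 0.06, both D-type cyclins. MKI67, the proliferation marker, rose by 0.84 ± 0.18, with a lower value in dog 4, but by 0.38 (adjusted p = 0.76) in cells of 3000 to 6000 UMIs, and it missed the threshold without dog 2 (0.0516) or dog 3 (0.177). A MKI67 UMI was seen in 3.73% ± 1.64 (SD) of the members and 1.74% ± 0.414 of the others, and in 1.90% ± 0.965 and 1.35% ± 0.415 in that depth range.

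Genes around SAMHD1 itself were counted in the same way, beside 2.57% called over all genes. Of 14 genes of deoxynucleotide metabolism, TK1 and PNP, a purine salvage enzyme (0.19 ± 0.04), rose, and none was called in cells of 3000 to 6000 UMIs. PNP missed the threshold without dogs 2 or 3 (adjusted p = 0.146 and 0.159). None of 9 nucleic acid sensing genes was called by edgeR. Of 21 interferon-stimulated genes, XAF1, OAS1, ISG15 and OAS2 rose. XAF1 was at 43.6, 59.0, 38.4 and 61.4 CPM against 29.8, 39.6, 26.5 and 39.2 CPM, with no dog against the direction, and ISG15, a ubiquitin-like modifier, at 28.7, 19.8, 2.60 and 16.8 CPM against 3.63, 10.6, 1.46 and 7.12 CPM. OAS1 missed the threshold without dog 3 (adjusted p = 0.0846) and OAS2 without dog 4 (0.079). Beside SELENOP, none of 18 genes of other selenoproteins and their synthesis was called, and none of 15 T cell receptor signalling genes, 15 chaperones of the endoplasmic reticulum or 14 memory and effector memory genes. The memory and effector memory list differed by depth range. In cells of 3000 to 6000 UMIs 3 of its 13 genes tested were called lower in the members and 0 higher, with a list median of -0.126.

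The members were next set against a CXCR3 gate, which took the cells of the same gate without a SAMHD1 UMI that had a UMI of CXCR3, the receptor of Th1 cells, and no UMI of LEF1, a transcription factor of naive and early memory cells (835 cells). The genes that set this gate were not tested in the comparison. A LEF1 UMI was seen in 71.7% ± 7.39 (SD) of the members and by choice in none of the CXCR3 gate, so that differences in naive, memory and Th1 genes are in part set by how the gate was chosen. Of 7816 genes, 860 (11%) were called, 385 higher (4.93%) and 475 lower (6.08%). The count was 435 without dog 2, 558 without dog 3 and 397 without dog as a block.

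Here CCR7 and TCF7 were higher in the members and VIM was lower. CCR7 was at 193, 219, 276 and 144 CPM in the members and at 53.3, 74.0, 73.0 and 56.5 CPM in the CXCR3 gate. TCF7 was at 411, 424, 411 and 377 CPM against 185, 195, 159 and 198 CPM. VIM, the filament protein vimentin that accumulates in memory cells, ran the other way, at 2434, 3029, 2820 and 3425 CPM against 5225, 4957, 4256 and 4569 CPM. For each of these genes the groups did not overlap. Of 12 naive and central memory genes tested, 5 rose and none fell, with a list median of 0.26. The 5 include the marker CCR7, and FOXP1, whose call was lost without dog 2 (adjusted p = 0.0864). CD28 (-0.23 ± 0.09), IL7R (-0.10 ± 0.07) and TXNIP (0.10 ± 0.07) were among the 7 not called.

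Counted over the lists, 11 of 13 memory and effector memory genes tested fell against the CXCR3 gate and none rose, with a list median of -0.52 beside 0.01 over all genes. CD44 and S100A11 fell by 0.25 ± 0.07 and 0.27 ± 0.06, where CD44 missed the threshold without dogs 1, 2 or 3 (adjusted p from 0.086 to 0.11) and S100A11 without dog 2 (0.0595). The calls of LGALS3 (0.146 without dog 3), AHNAK (0.0752 and 0.197 without dogs 1 and 3) and ITGAL (0.0639 without dog 2) were lost as well. Of the cytotoxic genes, 10 of 11 fell, among them CCL5 (-3.58 ± 0.25), GZMK (-2.59 ± 0.13), CCL4 (-2.40 ± 0.38) and PRF1 (-2.21 ± 0.28). In cells of 3000 to 6000 UMIs the change of CCL4 was smaller, at -1.42. CTSW rose, with a call that was lost in that depth range (adjusted p = 0.132). The calls of GZMB, FASLG and KLRD1 were each lost without at least 1 dog (adjusted p from 0.0599 to 0.419). Of 10 Th1 genes, 8 fell and none rose, in a comparison with cells picked for CXCR3, and the call of IFNG was lost without dog 2 (0.0509). TBX21 (T-bet), the factor that specifies Th1 cells, was at 9.41, 10.4, 9.11 and 26.5 CPM in the members and 31.3, 34.9, 43.8 and 38.7 CPM in the CXCR3 gate. CCR9 was at 6.93, 42.4, 18.9 and 51.7 CPM against 43.9, 214, 96.7 and 157 CPM, lower in the members in each dog.

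Among the genes that were higher, TNFRSF18 was at 33.7, 25.4, 38.4 and 38.3 CPM in the members and at 25.1, 10.3, 25.6 and 13.5 CPM in the CXCR3 gate, higher in each dog with a log2 fold change of 1.12 ± 0.22. The marker TNFRSF4 was at 21.9, 4.11, 5.48 and 9.22 CPM in the CXCR3 gate, so that dog 1 was higher there than in the members. Other genes of the costimulation list fell, 5 of 13 tested with TNFRSF4 included, namely CD2 (-0.68 ± 0.07), TNFRSF25 (-0.54 ± 0.09), CD6, CD5 and SLAMF1, the last with a call that was lost without dog 2 (adjusted p = 0.259) and in cells of 3000 to 6000 UMIs (0.122). RGS10, a brake on G protein signalling, was at 212, 147, 130 and 64.4 CPM in the members and 31.3, 13.4, 16.4 and 10.4 CPM in the CXCR3 gate, with no overlap. CCDC3 was at 105, 121, 61.8 and 68.2 CPM against 43.9, 20.5, 7.30 and 3.69 CPM (2.75 ± 0.23). ADAM19, a membrane metalloprotease, rose by 2.67 ± 0.27, CSTA, a cysteine protease inhibitor, by 2.19 ± 0.16 and CTPS1, which makes CTP for dividing lymphocytes, by 1.91 ± 0.23, each higher in all 4 dogs. Of 17 early activation genes, JUNB, DUSP2, IER2 and RGS1 rose, the last with a call that was lost without dog 2 (adjusted p = 0.0973).

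**Figure D4:**
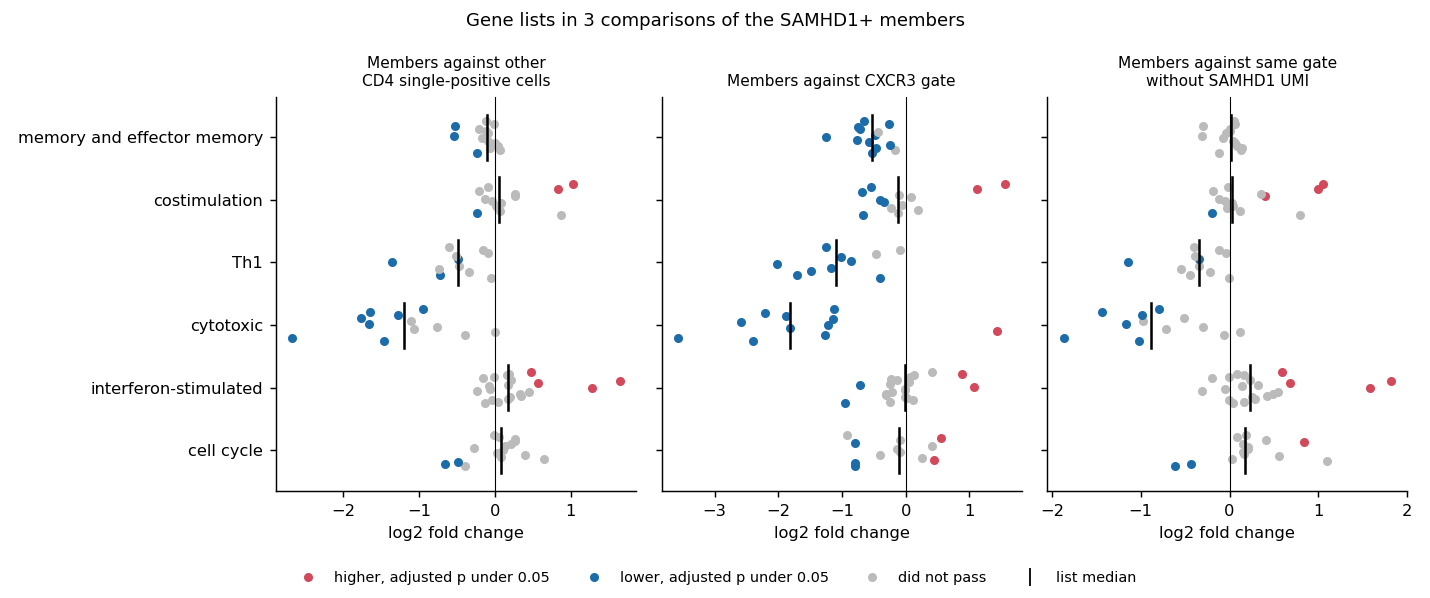
Log2 fold change (x axis, a separate scale in each panel) of the genes of 6 lists in 3 comparisons of the SAMHD1+ members, with red for higher and blue for lower at an adjusted p under 0.05, grey for genes not called and a line at the list median. All fits shown use cells of every depth. Memory genes lie below 0 against the CXCR3 gate and around 0 against the same gate without a SAMHD1 UMI, and most cytotoxic genes lie below 0 in all 3.

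The comparison with the same gate without a SAMHD1 UMI was repeated in cells without a LEF1 UMI, a choice made after the other results had been seen. With 89, 206, 82 and 196 members, 74 of 7775 genes (0.952%) were called. CCL5 changed by -2.41 ± 0.23, GZMK by -1.16 ± 0.13 and CCR9 by -1.07 ± 0.15, and CCR6 by 1.01 ± 0.20. Of the genes followed from the whole gate, 29 kept their result in these fewer cells and 19 lost their call. Among those lost were CTLA4 (0.17, edgeR adjusted p = 0.62), OAS1 (0.20, 0.842), ISG15 (1.18, 0.0928), TXNIP (-0.22, 0.216), MKI67 (0.51, 0.615) and DHX32 (0.93, 0.103). CTLA4 was lower in the members of dog 4, at 153 against 160 CPM. VIM and CD44 differed by -0.06 ± 0.06 and 0.00 ± 0.06, and neither was called. The markers ID3 and TNFRSF4 were at 161 ± 23.4 and 29.3 ± 6.43 CPM (SD) in these members against 79.6 ± 16.5 and 13.0 ± 4.02 CPM.

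Clonal expansion was read from the receptor libraries, which the gate did not use. A clone was a set of cells of 1 dog with the same TRA and TRB rearrangements, and 280, 432, 212 and 320 members of dogs 1 to 4 had both chains. The members had the lower share of expanded cells in each dog. Cells in clones of at least 2 cells made up 1.43%, 11.3%, 4.72% and 24.4% of the members and 3.29%, 28.4%, 15.0% and 48.4% of the cells without a SAMHD1 UMI. The mean difference was -13.3 ± 9.48 percentage points (SD over dogs), with the members lower in 4 of 4 dogs (exact sign-flip permutation test, two-sided, p = 0.13, the smallest possible). The exact 95% intervals count cells as independent, although cells of 1 clone are expanded together, so they are no test of the groups. The intervals of the 2 groups did not overlap in dogs 2, 3 and 4. In dog 1 they ran from 0.391% to 3.62% and from 2.51% to 4.23%. The CXCR3 gate, with 19.0%, 56.4%, 34.4% and 63.3%, lay above both in each dog. In these 3 groups dog 4 had the highest share and dog 1 the lowest.

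Among cells without a LEF1 UMI, 1.85%, 21.7%, 11.5% and 29.2% of the members and 9.12%, 44.5%, 29.0% and 53.3% of the others were in expanded clones, lower in the members in 4 of 4 dogs, with a mean difference of -17.9 percentage points (exact sign-flip permutation test, p = 0.13).

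**Figure D5:**
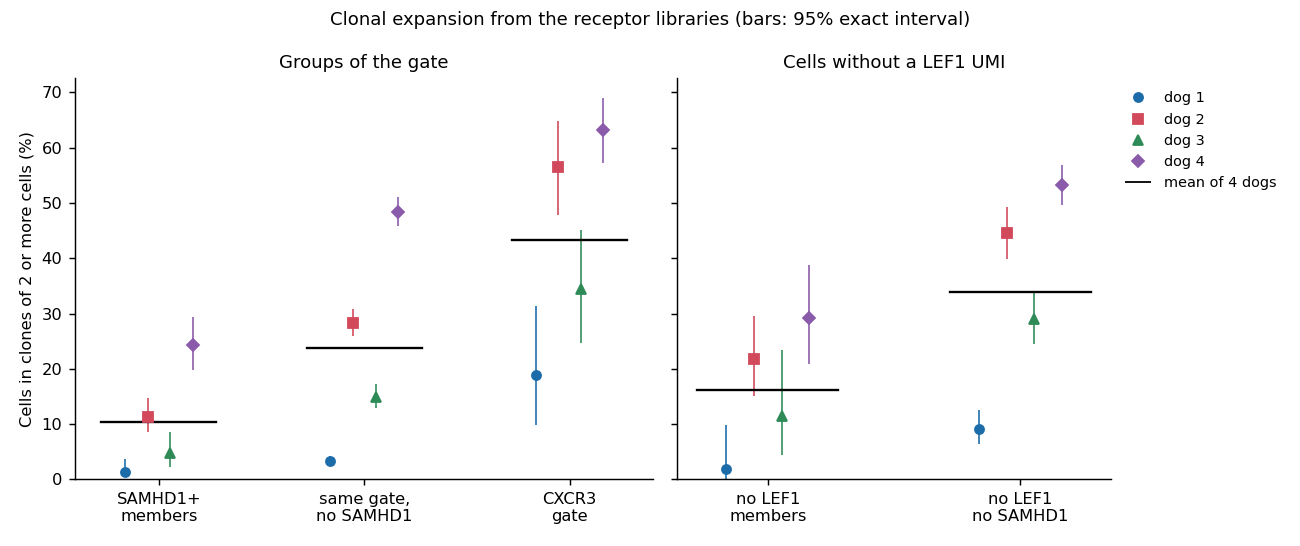
Share of cells in clones of at least 2 cells (percent, y axis), 1 point per dog with its exact 95% interval and a bar at the mean of the 4 dogs, for the SAMHD1+ members and 2 groups without a SAMHD1 UMI (left) and for cells without a LEF1 UMI (right). The members lie below the CXCR3 gate in each dog, with means of 10.5% and 43.3%, and below the cells without a SAMHD1 UMI in each dog in both panels.

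The expanded members were spread over many clones. In dogs 1 to 4, 4, 49, 10 and 78 members lay in 3, 42, 9 and 48 different expanded clones, and the clones with the most members held 2 to 4 of them among up to 79 cells. Their junctions are shown because the rearrangement is what ties a SAMHD1+ cell to its sisters. The first and last codon, for the conserved cysteine and the closing phenylalanine or tryptophan, are in capitals. In dog 4 a clone of 79 cells, 68 of them CD4 sp, contained 4 members (TRAV43-1 with TRAJ34 and TRBV16 with TRBJ2-1), and in dog 3 a clone of 78 cells, 52 of them CD4 sp, contained 2 (TRAV9-10 with TRAJ33 and TRBV15 with TRBJ1-2).
Dog 4 TRA: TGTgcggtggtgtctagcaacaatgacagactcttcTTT
Dog 4 TRB: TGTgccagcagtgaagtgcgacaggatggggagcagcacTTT
Dog 3 TRA: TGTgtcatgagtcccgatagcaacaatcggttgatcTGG
Dog 3 TRB: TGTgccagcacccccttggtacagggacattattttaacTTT
Cells of the gate that shared a clone with a member had a SAMHD1 UMI in 9.72% of 144 pairings in dog 2, 4.08% of 49 in dog 3 and 10.0% of 857 in dog 4. Those that shared a clone with a cell without a SAMHD1 UMI had one in 8.21% of 1584 pairings, 8.79% of 535 and 9.05% of 8519. The share was higher beside members in dogs 2 and 4 and lower in dog 3, and dog 1 gave only 5 pairings. Pairings are not independent, since a large clone gives many of them and a pair of a member and a cell without a SAMHD1 UMI enters both shares. The difference between the shares was not tested.

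No receptor gene passed the test. None of 95 V and J genes was called by edgeR (0% called), and 6 had an unadjusted p under 0.05. Of these 6, TRBV16 was used by 14.9%, 19.8%, 14.9% and 16% of the members and 16.7%, 20%, 21.4% and 22% of the cells without a SAMHD1 UMI (adjusted p = 0.374), lower in each dog, and TRBV3-1 by 5.38%, 6.77%, 4.96% and 6.55% against 8.11%, 7.78%, 7.70% and 7.94% (adjusted p = 0.374). TRAJ34, TRBJ2-3, TRAV9-7 and TRBV4-4 were the other genes, and with each clone counted once 2 genes had an unadjusted p under 0.05. The TRB junction had a mean length of 14.4 amino acids in both groups, with a difference of 0.0685 ± 0.031 (SD over dogs) that was positive in 4 of 4 dogs (exact sign-flip permutation test, p = 0.13).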

How the data were processed

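The authors sorted TCRαβ+ T cells, ran Cell Ranger 5.0.1 on the reads with CanFam 3.1 as the genome, and deposited matrices of UMI counts that had not been normalized, together with lists of productive TRA and TRB rearrangements. Gene names of all 4 matrices (20257 genes, 4453 of them known by identifier only) came from the list of dog 2, because that of dog 1 held 27980 lines. Under this order the correlation of log gene totals between dog 1 and the other dogs was 0.989 to 0.991. The members and the gene lists were chosen with earlier results of these data known.

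UMIs were summed per dog and cell group and tested with edgeR 4.0.16 (quasi-likelihood, TMM, filterByExpr, dog as a block) in R 4.3.3, with Benjamini-Hochberg adjustment over all genes tested and a threshold of 0.05. CPM were computed from the summed UMIs. The genes that define a comparison's groups were not tested in it. The block follows from both sums coming from the same dog and library, whose deviations from the group means correlated at 0.209 to 0.583 in 12 checks. In simulated data with 100 genes changed by 1 on the log2 scale, 88% were recovered for the comparison with other CD4 sp cells (9647 genes), and 94.9% of 98 such genes for the comparison with the same gate without a SAMHD1 UMI (9356 genes). Of 100 genes changed by 0.58, 78% were recovered in each, and the comparisons gave 6 and 10 false calls. Genes to be named were the 5 markers, in each comparison up to 12 of the largest rises and of the largest falls among genes past the threshold that moved one way in 4 dogs, had at least 20 CPM in either group and had a symbol, and up to 4 examples per list. These are described in full for the same gate without a SAMHD1 UMI and in part for the other comparisons. Where other genes of a list are described, they were chosen after their values were seen. Shares were compared by exact sign-flip permutation over dogs (scipy 1.17.1). Alternatives were DESeq2 1.42.0, no filter on low counts, no block, no TMM factors, leaving out each dog, a depth range of 3000 to 6000 UMIs, thinning to 2000 UMIs, at least 2 SAMHD1 UMIs, a mitochondrial limit of 5% and leaving out cells with more than 1 TRB. The restriction to cells without LEF1 was added after seeing the data. Results that need certain genes, among them a comparison with a naive gate, are not reported here. No doublet caller was run. Per the labels doublets had been excluded at the sort, which does not remove 2 cells caught in 1 droplet, and leaving out cells with more than 1 TRB was the check made here. Intervals cover counting error only, and the 4 dogs limit the precision of every comparison.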

Additional observations from a re-analysis of the deposited data

Results flagged for a closer look

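The named genes and shares of the SAMHD1+ members were looked over for single dogs far from the other 3 by Dixon's criterion for 4 samples. Of 50 values examined 4 met it, where chance gives about 1 in 20. CCL4, a chemokine of activated cells, was at 40.0 CPM in the members of dog 4 and between 0.495 and 5.85 CPM in the other dogs. KLRG1 was at 34.1 CPM in dog 4 against 7.81 to 10.7 CPM. SSBP2 was at 6.44 CPM in dog 1 against 20.2 to 22.3 CPM. H1-5 was at 143 CPM in dog 3 against 5.89 to 22.8 CPM. Why these dogs stood apart was not tested.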

How the results depend on the processing

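All counts of called genes depend on the test, the filter on low counts and the dogs. The DESeq2 fits were run without that filter, on 14057, 13894 and 12795 genes in the comparisons below. Their counts therefore differ from the main ones in both the test and the filter. Against the other CD4 sp cells, 221 genes became 81 with DESeq2, 422 with no filter on low counts and 54 to 320 when 1 dog was left out. Against the same gate without a SAMHD1 UMI, 240 genes became 70 with DESeq2, 416 with no filter, 46 to 241 when 1 dog was left out, 130 in cells of 3000 to 6000 UMIs, 154 at a mitochondrial limit of 5%, and 74 in cells without LEF1. Against the CXCR3 gate, 860 became 372 with DESeq2 and 435 to 827 when 1 dog was left out. Without dog as a block (the pairing of sums from 1 library), the counts of these 3 comparisons were 0, 0 and 397.

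The log2 difference of CCR7 from the same gate without a SAMHD1 UMI ranged from -0.034 to 0.16 when 1 dog was left out. The other reversal was H1-5 at -0.29 in the depth range. The cause was not tested. The mean share of CD4 sp cells in the gate, 14.7%, was 8.82% after thinning to 2000 UMIs and 3.86% with at least 2 SAMHD1 UMIs, both lower by construction. The share of cells in expanded clones stayed lower in the members with each alternative run, with differences of -17.1 to -9.71 percentage points when 1 dog was left out.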

Other observations

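SAMHD1 RNA was not limited to cells with a CD4 UMI. Of the 11510 cells with neither a CD4 nor a CD8A UMI, 7.90%, 16.8%, 7.93% and 14.7% (dogs 1 to 4) had a SAMHD1 UMI at a mean median depth of 3515 UMIs, and the gate leaves them all out. Dogs 2 and 4 were above dogs 1 and 3 in these cells as in the CD4 gate and in CD8A sp cells (5.12% and 3.84% against 1.74% and 1.97%). Against the same gate without a SAMHD1 UMI, where 2.57% of all genes were called, 4 of 11 Th2 genes and 6 of 12 Th17 genes were high enough to be tested. GATA3, the factor of Th2 cells, was at 109 ± 12.1 CPM (SD, n = 4) in the members and 107 ± 9.77 CPM in the cells of the same gate without a SAMHD1 UMI. Among the Th17 genes CCR6 was called higher, and among the Th2 genes IL4R was called lower. Among the 7 regulatory T cell genes tested, IKZF2, CTLA4 and TNFRSF18 were called higher. IKZF2 rose by 0.74 ± 0.18 on the log2 scale and missed the threshold without dogs 2 or 3 (edgeR adjusted p = 0.076 and 0.321). Cells with a FOXP3 UMI had been removed, but a cell without a FOXP3 UMI is not a cell without FOXP3 RNA. After thinning, a mean of 53.3% of the FOXP3+ CD4 sp cells kept a FOXP3 UMI. Whether regulatory T cells without a FOXP3 UMI stayed among the members was not tested. ID1 was called higher among 4 ID and E protein genes at 3.97 ± 2.86 CPM against 1.55 ± 0.848 CPM, a call lost without dogs 2, 3 or 4 (adjusted p from 0.0545 to 0.338).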
